A study of Capra hircus with 9 samples.

Results

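The genes described here are T cell and cytotoxic lymphocyte genes in the mammary gland of Laoshan dairy goats, a list of 10 symbols: CD3D, CD3E, CD3G, CD4, CD8A, CD8B, GZMA, GZMB, PRF1 and NKG7. They were taken from the deposited table by symbol, whatever their values, and 9 of the 10 had a row among its 23499 genes. GZMB, which encodes the granule protease granzyme B, had no row under that symbol and was not analysed here. The 9 libraries came from 9 healthy goats, all in the third parity, 1 library of whole mammary tissue per goat, taken at slaughter. Late lactation (LL) was sampled at 240 days postpartum, the dry period (DP) at 300 days postpartum and late gestation (LG) at 140 days after mating, with 3 goats each. The labels give no treatment and no other difference between the stages, and with separate goats at each stage the differences between stages include those between animals. The comparisons ask how much RNA of T cells and cytotoxic lymphocytes the gland held at each of the 3 stages.

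T cells recognise antigen with a receptor that sits in the membrane together with the CD3 chains, which pass its signal into the cell. Helper T cells carry the coreceptor CD4, and most cytotoxic T cells carry CD8, either as a pair of the alpha and beta chains or, on many intraepithelial lymphocytes and natural killer cells, as a pair of alpha chains. Cytotoxic T cells and natural killer cells kill by releasing granules that hold perforin, which opens the target's membrane, and granzymes, which are proteases. In ruminant udders, lymphocytes lie between the epithelial cells and in the stroma, and their number is known to vary with the lactation cycle.

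All values are FPKM, a level of RNA corrected for the length of the gene and the size of the library. In LL the 10 most highly expressed genes held 80.6% to 86.0% of the summed FPKM of a library, against 53.6% to 58.5% in DP and LG, so the values were divided by a scaling factor per library (median of ratios, 0.498 to 0.605 in LL, 1.44 to 1.53 in DP, against 1.198 to 1.31 in LG). These are called scaled FPKM. Without this step the median gene stood 1.09 (log2) higher in DP than in LL, 0.93 higher in LG than in LL and 0.18 higher in DP than in LG. Differences are log2 fold changes of scaled FPKM + 1, which understate the change of low genes, and were tested with limma over 14701 genes. A gene is called higher or lower at a Benjamini-Hochberg adjusted p under 0.05 with a log2 fold change that reaches 1 either way. In whole tissue, fewer cells of a type and less RNA per cell cannot be told apart. The label of the tissue matched its genes: luminal epithelial markers summed to 374 to 1185 scaled FPKM in every library. Of 5 milk protein genes, 5 were called lower in DP and in LG than in LL, beside 8.79% and 6.61% of all genes tested.

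All 9 genes passed the filter of 0.5 FPKM in at least 3 libraries, but 7 of them (CD3D, CD3G, CD4, CD8A, CD8B, GZMA and NKG7) had no LL library at that level and so were tested only because DP or LG was high. In DP against LL, 5 of 9 were called higher (CD3D, CD3E, CD3G, CD8A and NKG7) and 0 lower, where 13.8% of all genes tested were called higher and 8.79% lower. In LG against LL, 4 of 9 were called higher (CD3D, CD3G, CD8A and NKG7) and 0 lower, beside 10.7% and 6.61% of all genes. In DP against LG, limma called 0 of 9, beside 6.88% of all genes higher and 6.37% lower. In that comparison CD8B alone had an adjusted p under 0.05, with a log2 fold change under 1. The median log2 fold change of the 9 genes was 1.39, 0.83 and 0.58 in these 3 comparisons, against 0.00, 0.02 and -0.01 over all genes tested. The comparisons share libraries, so their counts are not independent.

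**Figure D1:**
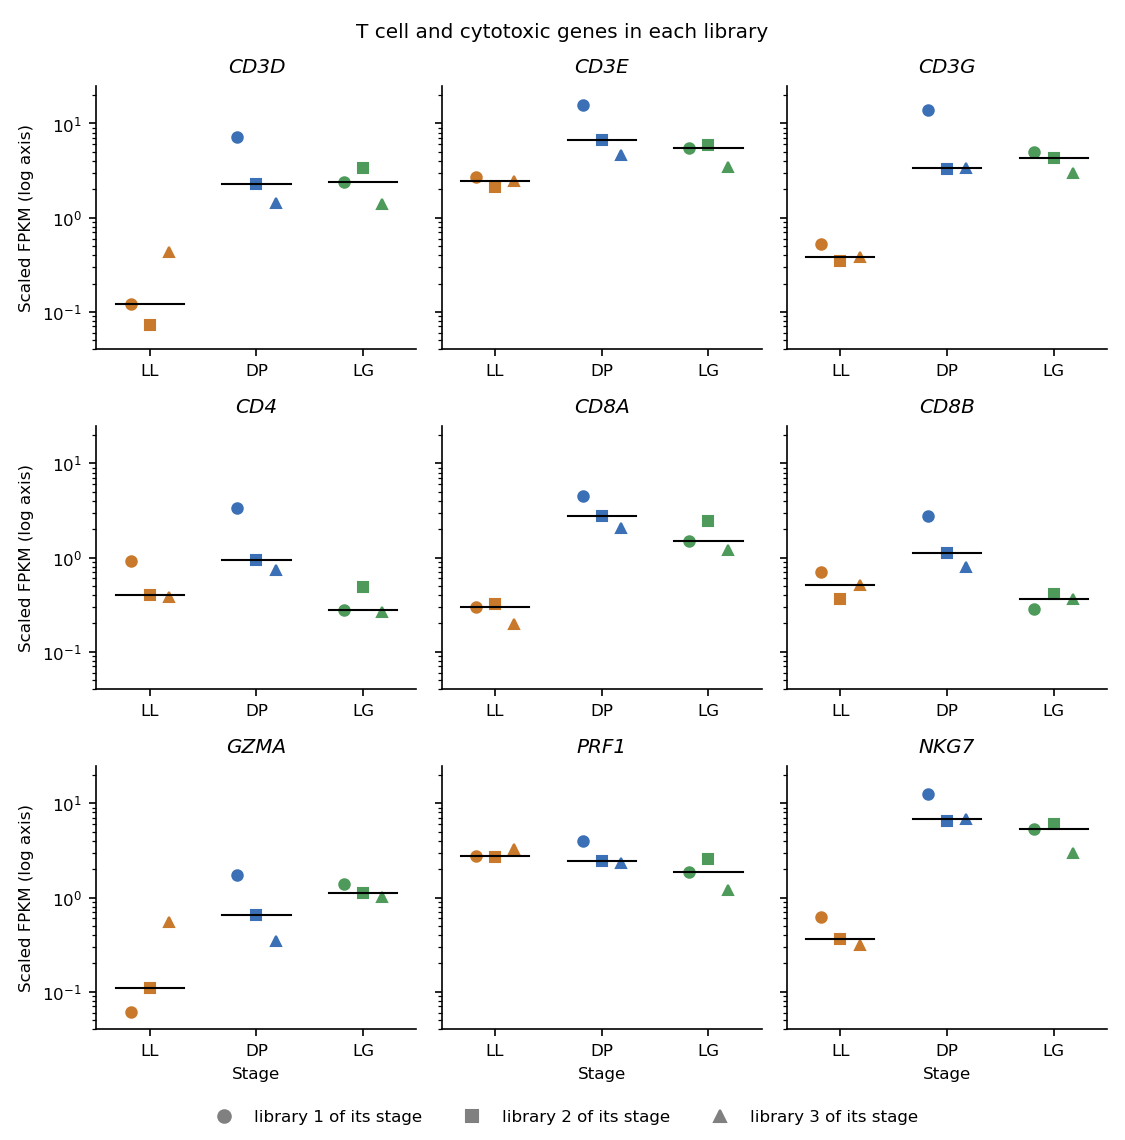
Scaled FPKM (log axis) of the 9 genes in each of the 9 libraries, by stage (LL, DP, LG), with the marker giving the library's number within its stage and the line the median of 3. CD3D, CD3G, CD8A and NKG7 lie below 0.65 in LL and above 1.2 in DP and LG, CD4 and CD8B are back at 0.27 to 0.49 in LG, and library 1 of DP (circles) is the highest of all 9 libraries in each panel.

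The CD3 chains were highest in DP and LG. CD3G, the gamma chain of the complex, had scaled FPKM of 0.522, 0.343 and 0.380 in the LL libraries, 13.8, 3.32 and 3.37 in DP, with 4.94, 4.27 and 2.95 in LG. Every DP and LG library was above every LL library, and DP and LG overlapped. Its log2 fold change was 2.21 ± 0.41 (SE, adjusted p = 0.00160, limma) in DP against LL and 1.82 ± 0.41 (adjusted p = 0.00513) in LG against LL. As deposited, CD3G was 0.227 ± 0.0351 FPKM in LL, 10.2 ± 9.39 in DP, compared with 5.02 ± 1.04 in LG (mean ± SD, n = 3), with library 1 of DP far above the other two.

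CD3D, the delta chain, had scaled FPKM of 0.121, 0.0723 and 0.429 in LL, 7.25, 2.27 and 1.45 in DP, against 2.41, 3.39 and 1.39 in LG. The pattern was that of CD3G, with no overlap of LL with the other stages and a median that was higher in LG than in DP. The log2 fold change was 1.75 ± 0.40 (adjusted p = 0.00480, limma) in DP against LL and 1.46 ± 0.40 (adjusted p = 0.0130) in LG against LL. Without library 2 of LG, the latter was 1.25 and was no longer called (adjusted p = 0.05001).

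CD3E, the epsilon chain, stood higher in LL than its partners, at 2.69, 2.10 and 2.46 scaled FPKM, against 15.5, 6.70 and 4.58 in DP, with 5.53, 5.93 and 3.46 in LG. Its stages did not overlap between LL and the others. It was called higher in DP than in LL (1.39 ± 0.34, adjusted p = 0.00720, limma), and in LG against LL the difference of 0.78 ± 0.34 was not called (adjusted p = 0.0833). Leaving out library 1 of DP lowered the former to 0.94, under the fold threshold. CD3G, CD3D and CD3E are neighbours on chromosome 15, at 53298091 to 53310972, 53312515 to 53317687 and 53321075 to 53331727 in the table, which names no genome build. The gaps between them were 1542 and 3387 bases. None of the 9 genes had values that followed those of a neighbouring gene to within 1% or 5% of its range, as some genes of this table do.

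The coreceptors differed among themselves. CD8A, the alpha chain of CD8, had scaled FPKM of 0.301, 0.325 and 0.198 in LL, 4.52, 2.74 and 2.06 in DP, compared with 1.5, 2.43 and 1.21 in LG. It was above LL in every library of DP and LG. The log2 fold change was 1.64 ± 0.23 (adjusted p = 0.000277, limma) in DP against LL and 1.07 ± 0.23 (adjusted p = 0.00385) in LG against LL. The LG call sat close to the fold threshold, and with quantile normalization it was 0.78 and without library 2 of LG 0.88, neither of them called.

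CD8B, the beta chain of CD8, had scaled FPKM of 0.703, 0.362 and 0.512 in LL, 2.74, 1.12 and 0.785 in DP, against 0.284, 0.413 and 0.365 in LG. It stood above both other stages in DP without overlap, whereas LL and LG overlapped. Its log2 fold change was 0.67 ± 0.24 in DP against LL (adjusted p = 0.0389, limma), -0.17 ± 0.24 in LG against LL (adjusted p = 0.591) and 0.84 ± 0.24 in DP against LG (adjusted p = 0.0245), none of them called, since no difference reached 1. With a pseudocount of 0.1 in place of 1 the DP values were 1.25 against LL and 1.69 against LG, both called. CD8B and CD8A lie 54230 bases apart on chromosome 11, in the same orientation, at 47654539 to 47673514 and 47727745 to 47735368 in the table.

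CD4, the coreceptor of helper T cells, on chromosome 5 at 102556627 to 102579742, ran closest to CD8B. Its scaled FPKM were 0.924, 0.398 and 0.380 in LL, 3.32, 0.950 and 0.730 in DP, with 0.276, 0.486 and 0.266 in LG. DP was above LG in each library, LL overlapped both, and the deposited means were 0.303 ± 0.136, 2.5 ± 2.24 and 0.427 ± 0.150 FPKM (SD, n = 3). The log2 fold changes of 0.66 ± 0.31 in DP against LL (adjusted p = 0.0943, limma), -0.21 ± 0.31 in LG against LL (adjusted p = 0.597) and 0.87 ± 0.31 in DP against LG (adjusted p = 0.0543) were not called. For CD4 and CD8B the negative sign in LG against LL was lost without scaling, where both were positive (0.13 and 0.17). With a pseudocount of 0.1 CD4 was 1.74 in DP against LG and was called, and without library 3 of DP both genes were called there (1.12 for CD4 and 1.055 for CD8B). Both genes were at most 0.6 FPKM in LL and LG as deposited, and the counting error of such values is unknown.

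Of the granule genes, NKG7 (chromosome 18, 58469396 to 58471068), a membrane protein of cytotoxic granules in T and natural killer cells, showed the largest differences of the 9 against LL. Its scaled FPKM were 0.623, 0.362 and 0.314 in LL, 12.5, 6.47 and 6.82 in DP, compared with 5.28, 6.06 and 2.98 in LG. The 3 stages did not overlap in any pair. The log2 fold change was 2.70 ± 0.26 (adjusted p = 3.7e-05, limma) in DP against LL, 1.97 ± 0.26 (adjusted p = 0.000317) in LG against LL and 0.72 ± 0.26 (adjusted p = 0.0594, not called) in DP against LG. The first 2 remained called under every alternative that was run.

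GZMA (chromosome 20, 24057672 to 24066864), which encodes granzyme A, had its highest median in LG. Its scaled FPKM were 0.0603, 0.108 and 0.545 in LL, 1.73, 0.652 and 0.347 in DP, against 1.39, 1.12 and 1.0046 in LG. LG was above LL in every library, and DP overlapped both. The log2 fold change in LG against LL was 0.83 ± 0.25 (adjusted p = 0.0217, limma), under the fold threshold on this scale, and with a pseudocount of 0.1 it was 2.18 and called. DP differed from LL by 0.58 ± 0.25 (adjusted p = 0.0748) and from LG by -0.25 ± 0.25 (adjusted p = 0.480).

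PRF1 (chromosome 28, 18870679 to 18875355), which encodes perforin, was the exception. It had scaled FPKM of 2.77, 2.69 and 3.24 in LL, 3.98, 2.46 and 2.31 in DP, with 1.89, 2.59 and 1.21 in LG, so that LL and DP overlapped and each LG library was below each LL library. The difference from LL was -0.02 ± 0.20 for DP (adjusted p = 0.951, limma) and -0.46 ± 0.20 for LG (adjusted p = 0.0878), neither of them called, and both signs turned without scaling (1.00 and 0.34). As deposited, PRF1 was 1.61 ± 0.308 FPKM in LL, 4.32 ± 1.53 in DP, compared with 2.35 ± 0.804 in LG (SD, n = 3).

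PRF1 and CD3E were the only 2 of the 9 genes above 1 FPKM in LL as deposited, and the low values of the table had a step near that level. The LL libraries held few genes just under that level and many above it. In library 1 of LL, 33 genes lay between 0.7 and 0.8 FPKM and 654 between 1.1 and 1.2, in library 2 the counts were 25 between 0.7 and 0.8 and 687 between 1.4 and 1.5, and in library 3 they were 20 between 0.8 and 0.9 and 618 between 1.6 and 1.7. Library 1 of DP held 149 genes between 0.7 and 0.8 and 200 between 1.6 and 1.7. The LG libraries also had such a dip. Library 1 of LG held 60 genes between 0.7 and 0.8 and 272 between 1.8 and 1.9. Library 2 held 31 between 0.8 and 0.9 and 245 between 1.4 and 1.5. Library 3 held 56 between 0.7 and 0.8 and 257 between 1.7 and 1.8. Elsewhere in the table BAX exceeded its neighbour FTL by exactly 1, 1.3 and 1.5 FPKM in the LL libraries, 1, 1.5 and 1.5 in DP, against 1.5, 1.2 and 1 in LG. PRF1 was at or above these amounts in all 9 libraries, as were 10522 genes of the table, and no other member was, CD3E lying under them in libraries 2 and 3 of LL. With the amounts subtracted from those genes, an alternative chosen after the values were seen, PRF1 was 0.84 higher in DP than in LL (adjusted p = 0.029, limma, under the fold threshold) and 0.19 higher in LG than in LL (adjusted p = 0.61), and the count of members called was 5, 4 and 0 as before. The level of PRF1 in LL, and its direction, therefore depended on how the low values were read.

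**Figure D2:**
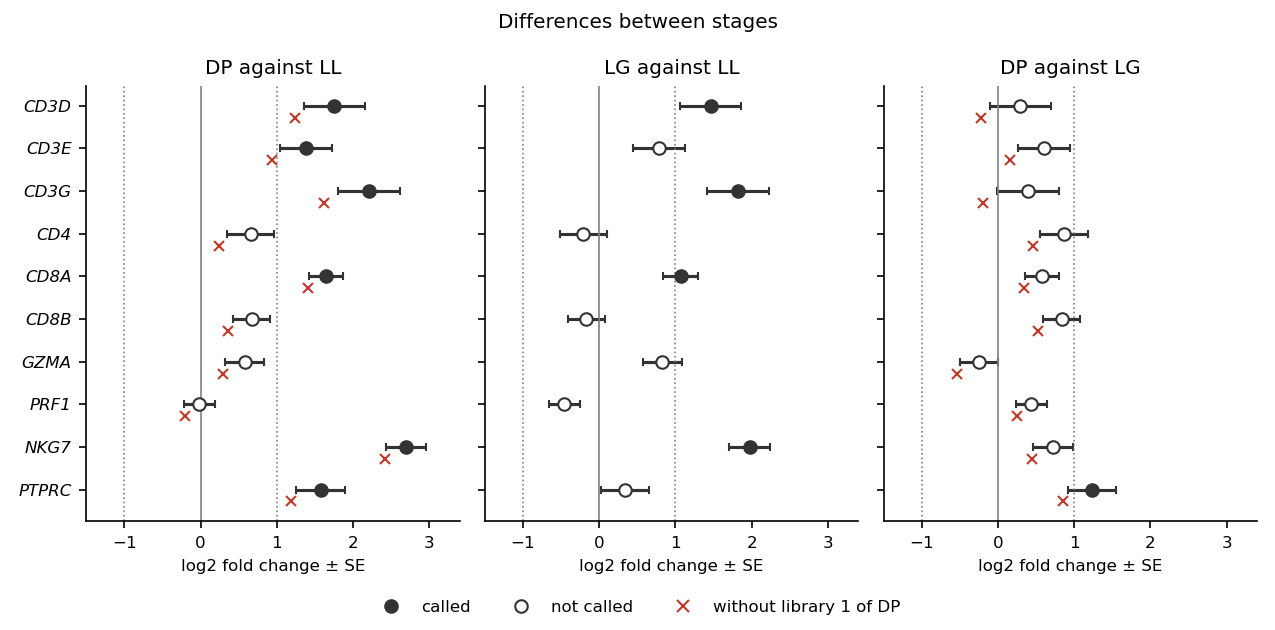
Log2 fold change ± SE (limma) of the 9 genes and PTPRC in DP against LL, LG against LL and DP against LG. Filled points are called, open points are not, dotted lines mark a log2 fold change of 1 either way, and red crosses, drawn in the panels that compare DP, give the value without library 1 of DP, which lies below the value from all 9 libraries for each gene there.

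Where the libraries of DP were above all of LL, or of LG, was also counted. The 3 scaled values of DP lay above the 3 of LL in 6 of 9 genes (CD3D, CD3E, CD3G, CD8A, CD8B and NKG7), where 32.5% of all genes tested did. Those of LG lay above LL in 6 of 9 (CD3D, CD3E, CD3G, CD8A, GZMA and NKG7), beside 31.0% of all genes. Those of DP lay above LG in 3 of 9 (CD4, CD8B and NKG7), beside 22.8%. Apart from CD3E, the genes of the counts against LL had no LL library at 0.5 FPKM and passed the filter only through DP or LG. Values above LL were thus favoured in advance, and the shares of all genes are no test of these counts.

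Library 1 of DP stood apart. It held the highest scaled value of all 9 libraries in 9 of the 9 genes, and in 12.8% of all genes tested. Its level over the mean of the other two DP libraries was 1.67 for PRF1, between 1.88 and 2.88 for CD8A, NKG7, CD3E and CD8B, and between 3.46 and 4.12 for GZMA, CD3D, CD4 and CD3G, against a median of 0.981 over all genes tested. Summed over the 9 genes, DP libraries held 65.4, 26.7 and 22.4 scaled FPKM, LG libraries 23.5, 26.7 and 14.8 and LL libraries 8.72, 6.76 and 8.46. The sums of the other two DP libraries were close to those of LG, and all DP and LG sums lay above LL.

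Some markers of other cells were also highest in that library, and others were not. The single genes given here were picked from the marker lists after their values were seen. MS4A1 and CD79B, surface proteins of B cells, were at 5.03 and 4.28 scaled FPKM in library 1 of DP and at most 0.221 and 0.281 in the other 8 libraries. ADIPOQ, the adipocyte hormone adiponectin, was at 12.6 there and at most 1.20 elsewhere. CXCL13, the chemokine that draws B cells into lymphoid follicles, was at 23.4 in library 1 and 7.18 in library 2 of DP and at most 0.396 elsewhere. Over the whole lists, 14 B and plasma cell genes summed to 157, 152 and 54.2 scaled FPKM in DP and 19.6 to 30.8 in LG. LL held 212 to 867, of which the plasma cell gene JCHAIN made up most. The sums of 5 adipocyte genes were 2.66 to 21.2 in DP, 1.27 to 1.95 in LG and 2.77 to 3.88 for LL. The sums of 6 lymph node genes, CXCL13 among them, were 55.8, 39.6 and 17.6 in DP and at most 16.0 in LL and LG, and those of 7 neutrophil genes were 40.8, 14.7 and 12.6 in DP and at most 27.3 elsewhere. Fibroblast genes were not highest in library 1, with sums of 518, 923 and 2415 in DP. Of these, 6 of 7 were called higher in DP than in LL, beside 13.8% of all genes, with a median log2 fold change of 1.85. Macrophage sums (267, 258 and 322 in DP) and endothelial sums (126, 125 and 180) were not highest there either. Basal and luminal epithelial sums were the lowest of all 9 libraries in library 1 of DP, at 134 and 374. The 3 red cell genes with a row were at or near 0 in all libraries, the highest sum being 0.0162. The part of these cells in the values of library 1 was not tested. Without it, DP against LL was still called for CD3D (1.24), CD3G (1.62), CD8A (1.41) and NKG7 (2.42), and DP against LG turned negative for CD3D (-0.22) and CD3G (-0.20), with neither called.

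PTPRC, which encodes CD45, the phosphatase on all leukocytes, gives the level of leukocyte RNA in general. It was at 7.19, 5.35 and 6.82 scaled FPKM in LL, 36.7, 19.1 and 13.2 in DP, with 8.69, 10.5 and 6.41 in LG. DP lay above both other stages, and LL and LG overlapped. It was called higher in DP than in LL (1.58 ± 0.32, adjusted p = 0.00255, limma) and than in LG (1.24 ± 0.32, adjusted p = 0.0144), and not in LG against LL (0.34 ± 0.32, adjusted p = 0.398). The DP against LG difference was 0.85 without library 1 of DP and 1.07 without library 3 of LG (adjusted p = 0.054), neither of them called. Of 10 tested macrophage genes, 5 were called higher in DP than in LL and 9 higher in DP than in LG, and 0 were higher and 3 lower in LG than in LL, where 13.8%, 6.88%, 10.7% and 6.61% of all genes were called in these directions.

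Ratios between genes of one library do not depend on scaling, and were computed from the deposited values. CD8A over CD4 was 0.326, 0.818 and 0.522 in LL, 1.36, 2.88 and 2.82 in DP, compared with 5.45, 5.0 and 4.54 in LG. No 2 stages overlapped, and CD8A ranged from less RNA than CD4 in each LL goat to several times more in each LG goat. CD8B over CD8A went the opposite way, at 2.33, 1.11 and 2.58 in LL, 0.605, 0.408 and 0.382 in DP, against 0.189, 0.170 and 0.302 in LG, again without overlap. In LG, RNA of the CD8 alpha chain was thus several times that of the beta chain in each goat. LL ratios rest on values of 0.12 to 0.46 FPKM. The CD4 and CD8B values in the LG ratios were also low, and the counting error of such values is unknown.

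The ratio of CD3E to PTPRC, T cell RNA over leukocyte RNA, was 0.374, 0.392 and 0.361 in LL, 0.424, 0.350 and 0.347 in DP, with 0.636, 0.565 and 0.539 in LG. LG was above both other stages, by 0.62 and 0.64 on the log2 scale, and LL and DP overlapped. CD8A over PTPRC was 0.0419, 0.0608 and 0.0291 in LL, 0.123, 0.143 and 0.156 in DP, compared with 0.173, 0.232 and 0.189 in LG, with no overlap, while CD4 over PTPRC was lower in LG (0.0317 to 0.0464) than in DP (0.0496 to 0.0907) and LL (0.0557 to 0.129). PTPRC is one of the genes at or above the amounts described for BAX and FTL. With these subtracted from PTPRC, but not from CD3E, the ratio of CD3E to PTPRC differed by 0.15 between LG and LL. Between DP and LG it differed by -0.75, on the log2 scale. PTPRC followed no neighbouring gene to within 1% or 5% of its range, and whether it holds such an amount is not known.

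Within the set, CD3G over CD3E was 0.194, 0.164 and 0.154 in LL, 0.888, 0.496 and 0.736 in DP, against 0.893, 0.721 and 0.852 in LG. NKG7 over CD3E was 0.231, 0.172 and 0.128 in LL, 0.807, 0.966 and 1.49 in DP, with 0.955, 1.02 and 0.861 in LG. In both, LL lay below the other stages and DP and LG overlapped. The LL values divide a level under 0.5 FPKM by one above 1 FPKM. GZMA over CD3E was higher in LG (0.189 to 0.291) than in DP (0.0759 to 0.111), without overlap. PRF1 over CD3E was 1.03 to 1.32 in LL, 0.256 to 0.505 in DP, compared with 0.341 to 0.436 in LG. With the amounts between BAX and FTL subtracted, from PRF1 but not from CD3E, the log2 difference of this ratio from LL was -0.06 in place of -1.73 for DP. For LG it was -0.61 in place of -1.69. In an exact permutation test (two-sided) of 10 ratios in 3 comparisons, each pair of stages without overlap reached p = 0.1, the smallest that 3 against 3 libraries allow, and the adjusted value over the 30 tests was 0.136, so no ratio passed a threshold of 0.05.

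**Figure D3:**
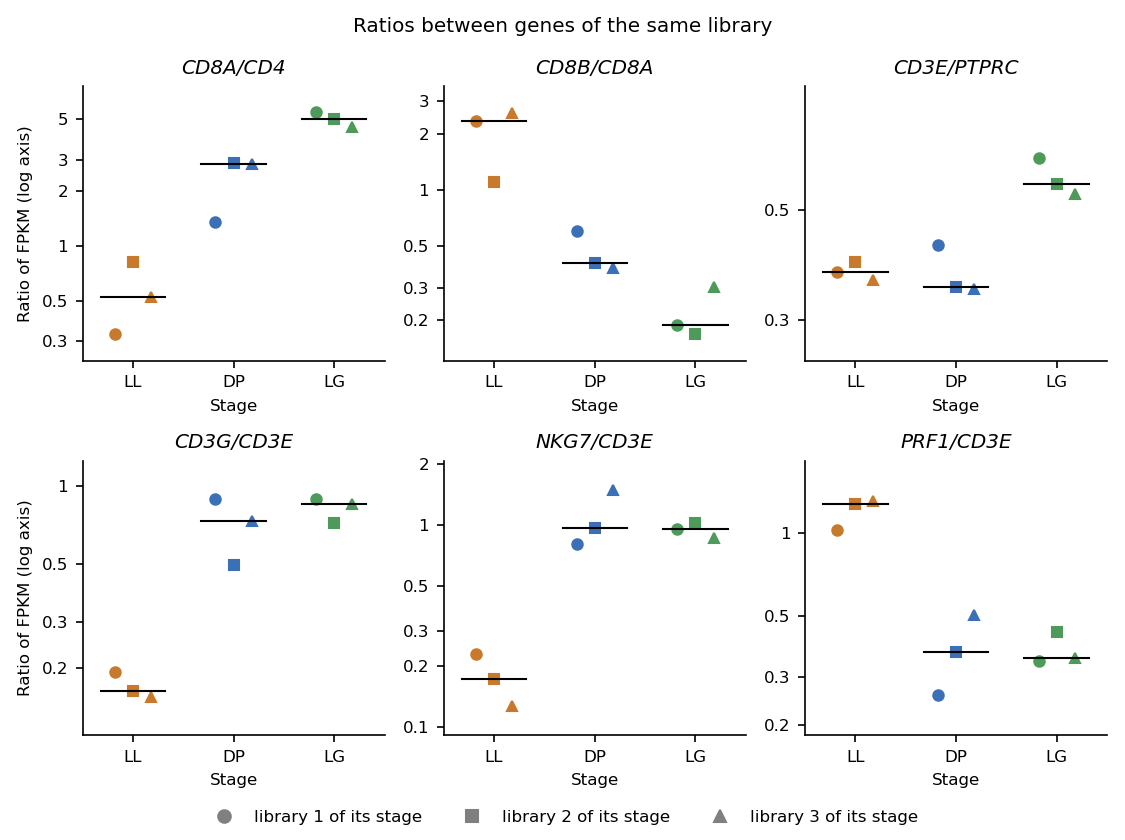
Ratio of deposited FPKM (log axis) of 6 gene pairs in each library, by stage, with the marker giving the library's number and the line the median of 3. CD8A over CD4 increases from LL (0.326 to 0.818) through DP (1.36 to 2.88) to LG (4.54 to 5.45), CD8B over CD8A runs the other way, and CD3E over PTPRC is highest in LG.

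Over the 9 libraries, the genes fell into looser and tighter pairs (Pearson r of log2 values, n = 9 libraries of 3 stages, as a description). CD4 and CD8B were the closest pair (0.980), followed by CD8A and NKG7 (0.979) and by CD3D and CD3G (0.972). CD4 with NKG7 reached 0.510 and CD8A with CD8B 0.641. PRF1 had an r of -0.05 with GZMA and of -0.01 with NKG7. These were computed without subtracting the amounts between BAX and FTL, on which the direction of PRF1 depended, and were not computed with them subtracted. All pairs share the difference between stages and the height of library 1 of DP. The genes of the table most like the mean of the 9 over the libraries were NLRC3 (r = 0.984), an inhibitor of innate signalling found in lymphocytes, SEPT1 (0.983), a septin, LOC102187356 and LOC102182286 (both 0.980), NAPSA (0.978, an aspartic protease), IKZF3 (0.976, the lymphocyte transcription factor Aiolos), FYB (0.976, an adaptor of T cell receptor signalling), LOC102183862 (0.975), SIT1 (0.972, a membrane adaptor of T cells) and TBC1D10C (0.971). LOC102182286 and LOC102183862 each followed a neighbouring gene to within 1% of its range and are not separate measurements.

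Other T cell and cytotoxic genes were taken from 6 lists, which hold 140 symbols with 132 rows, of which 111 passed the filter. Of these, 40 were called higher and 3 lower in DP against LL, 23 higher and 5 lower in LG against LL, and 18 higher and 3 lower in DP against LG. As with the members, some genes called higher passed the filter only through DP or LG, and could hardly be called lower than in LL. SLA2, LCK, CXCR6, CD5, GNLY and IL2RA, described below, had no LL library at 0.5 FPKM. The share of all genes tested was 13.8% higher and 8.79% lower in the first comparison, 10.7% and 6.61% in the second and 6.88% and 6.37% in the third, and the counts of single lists that follow are to be read beside the same shares. The median log2 fold change was 0.62, 0.05 and 0.50, against 0.00, 0.02 and -0.01 over all genes. Without library 1 of DP, 28 were called higher in DP than in LL and 10 higher than in LG. Without scaling, 74 were called higher in DP than in LL and 38 in LG than in LL, and 0 lower in either.

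**Figure D4:**
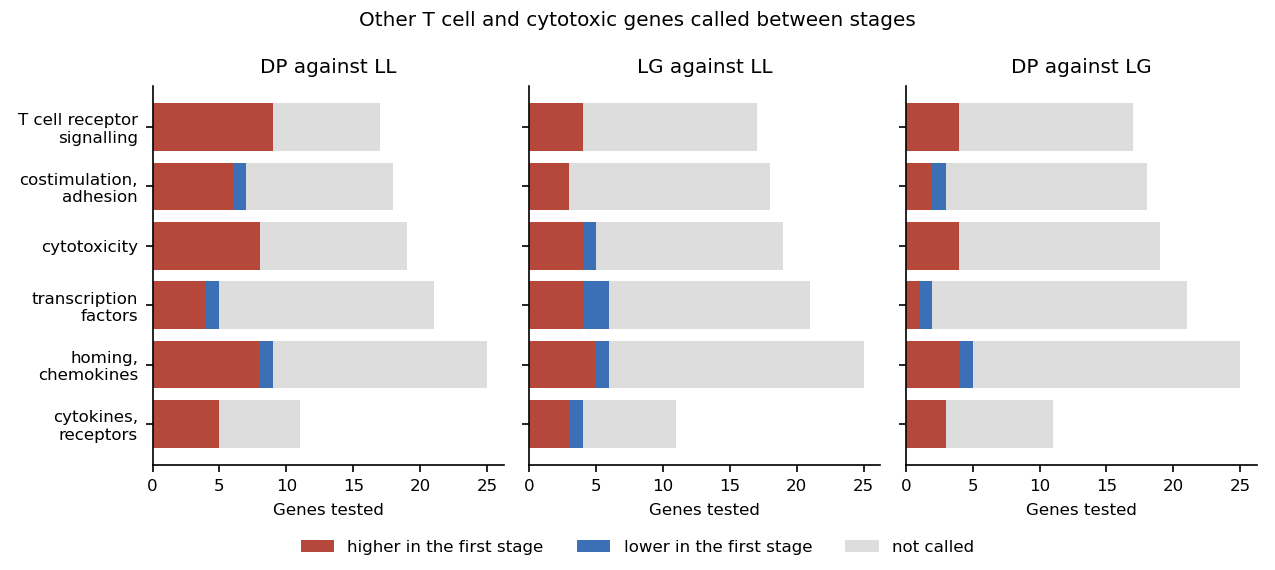
Number of tested genes in 6 lists of other T cell and cytotoxic genes that were called higher, called lower or not called in DP against LL, LG against LL and DP against LG (limma, adjusted p under 0.05 and log2 fold change of at least 1). T cell receptor signalling has 9 of 17 genes higher in DP than in LL, and the transcription factors 4 of 21.

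Of 17 genes of T cell receptor signalling, 9 were called higher in DP than in LL, 4 in LG than in LL and 4 in DP than in LG, with 0 lower. SLA2, an adaptor that dampens receptor signalling, was at 0.121, 0.108 and 0.495 scaled FPKM in LL, 6.29, 3.91 and 4.67 in DP, against 1.4, 3.61 and 2.65 in LG. TXK, a kinase of T cells, was higher in DP than in LL by 1.88 and in LG than in LL by 1.04. The LG call was lost without library 2 of LL (0.98) or library 1 of LG (0.97) and with quantile normalization (0.85). FYN, a kinase that many cell types express, was higher in DP than in LL by 1.21 and than in LG by 1.55. The other genes called in LG against LL were LCK, the kinase bound to CD4 and CD8, and CD247, the zeta chain of the receptor, named after their values were seen. LCK was at 0.0904 to 0.363 in LL, 3.11 to 9.86 in DP, with 1.94 to 4.56 in LG.

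Of 18 tested surface receptors, 6 were called higher and 1 lower in DP against LL, and 3 higher and 0 lower in LG against LL. CD2, an adhesion receptor, was higher in DP than in LL by 1.55, and CD96, a receptor of T and natural killer cells, by 1.53. HAVCR2 (TIM-3), which macrophages also express, was higher by 1.85, but its values followed those of its neighbour TIMD4 to within 5% of the range. CD5, a brake on receptor signalling, was the list's one gene lower in DP than in LG (-1.41 ± 0.41, adjusted p = 0.0238, limma), at 4.68, 2.55 and 1.77 scaled FPKM in DP, 18.8, 4.61 and 8.45 in LG and 0.362, 0.163 and 0.149 in LL. This call was lost when any of libraries 2 and 3 of DP and 1 and 3 of LG was left out (-0.93 to -1.47). It was also lost with only the 2 stages compared in the fit (-1.41). CD7, the gene lower in DP than in LL and named after its values were seen, was at 23.8 to 35.9 in LL and 7.89 to 16.5 in DP, with a difference of -1.24 that turned to 0.10 without scaling and was not called without library 3 of DP (-0.98). With quantile normalization the difference was -0.88 and not called.

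Of 19 tested granule, killer receptor and release genes, 8 were called higher in DP than in LL and 0 lower, and 4 higher and 1 lower in LG than in LL. The median log2 fold change of the list was 0.61 in DP against LL, with 14 of 19 positive. In LG against LL it was -0.22, with 9 of 19 positive. CTSW, a cathepsin of cytotoxic cells, was at 4.02, 3.92 and 6.41 scaled FPKM in LL, 42.9, 27.0 and 26.4 in DP, compared with 27.0, 28.9 and 18.1 in LG, and was higher in both than in LL by 2.51 and 2.15. HCST, the adaptor of the receptor NKG2D, was higher by 2.17 and 1.42. CTSC, the protease that activates granzymes and that myeloid cells also express, was higher in DP than in LL by 1.57 and than in LG by 1.28. GNLY, the granule protein granulysin, named after its values were seen, was at 0.161 to 0.253 in LL, 0.959 to 3.54 in DP, against 1.90 to 5.90 in LG, and was called higher in both stages than in LL (1.31 and 1.90). SRGN, the proteoglycan core of granules in many blood cells, fell in LG against LL by 1.83 on the log2 scale. Without scaling the difference was -0.70 and not called. UNC13D, a factor of granule release, was the remaining gene higher in LG than in LL (1.26).

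Of 21 tested transcription factors of T cells, 4 were called higher and 1 lower in DP against LL and 4 higher and 2 lower in LG against LL. The median log2 fold change of the list was -0.08 in DP against LL, with 9 of 21 positive. In LG against LL it was 0.22, with 12 of 21 positive. SATB1, a chromatin organiser of developing and mature T cells, was higher in DP than in LL by 2.10 and in LG by 1.54, and IKZF1 (Ikaros) by 2.01 and 1.56. RUNX3, a factor of the CD8 lineage, differed by 0.92 in DP against LL, under the fold threshold. IKZF2 (Helios), a factor of regulatory T cells, was lower in DP than in LL (-1.27) and in LG than in LL (-1.38), at 6.24 to 8.18 in LL. Without scaling these differences were -0.14 and -0.44, neither called, and which cells held its RNA was not tested. GATA3, which luminal epithelial cells also express, was higher in LG than in LL by 1.1 and lower in DP than in LG (-1.17), and BCL6 was lower in LG than in LL (-1.25), both named after their values were seen. The GATA3 calls were lost when 1 library was left out, that in LG against LL without library 2 of LL (0.82) or 3 of LG (0.996), and that in DP against LG without library 2 or 3 of DP or 1 or 3 of LG (-0.86 to -1.21). Without scaling, BCL6 in LG against LL (-0.32) and GATA3 in DP against LG (-0.99) were not called.

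Of 25 tested homing genes, 8 were called higher and 1 lower in DP against LL, 5 higher and 1 lower in LG against LL and 4 higher and 1 lower in DP against LG. The median log2 fold change of the list was 0.59 in DP against LL, with 17 of 25 positive. In LG against LL it was -0.19, with 11 of 25 positive. CXCR6, a chemokine receptor of tissue-resident lymphocytes, was at 0.362, 0.163 and 0.248 scaled FPKM in LL, 6.16, 3.19 and 3.22 in DP, with 2.75, 3.66 and 2.99 in LG. ITGAE and ITGB7, the 2 chains of the integrin with which intraepithelial lymphocytes bind E-cadherin, were higher in DP than in LL by 2.24 and 1.98 and in LG than in LL by 1.55 and 1.29, the last not called without library 2 of LG (1.055). The ITGB7 call in LG against LL was also lost with quantile normalization (0.98). The other genes higher in LG than in LL were CXCL9 (1.69) and CXCL10 (3.4), interferon-induced chemokines for T cells, named after their values were seen. CXCL9 lost its call when any one of the LL libraries was left out (adjusted p = 0.0515 to 0.056, limma). CXCL10 was also the gene of this list lower in DP than in LG (-1.28), a call lost without library 2 of DP (-0.92), 1 of LG (-1.35) or 2 of LG (-0.88). It was also lost without the filter and with only the 2 stages compared in the fit (-1.28 in both). CCL28, the epithelial chemokine for plasma cells, was lower in DP than in LL (-1.64 ± 0.51, adjusted p = 0.0219, limma), at 23.1, 34.2 and 11.3 in LL and 9.70, 5.11 and 4.32 in DP, and lost its call without library 1 or 2 of LL or 2 or 3 of DP (-1.29 to -1.56). Without scaling the CCL28 difference was -0.34 and not called. CD69, an early activation marker, was the gene lower in LG than in LL (-1.23). Its difference was -0.98 without library 2 of LL and -0.62 without scaling, neither of them called.

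Of 11 tested cytokine and receptor genes, 5 were called higher in DP than in LL and 0 lower, and 3 higher and 1 lower in LG than in LL. IL15 and IL15RA, which sustain CD8 T cells and natural killer cells, were higher in DP than in LL by 1.5 and 1.71 and in LG by 1.65 and 1.77. IL2RB, the receptor chain that binds both IL-2 and IL-15, was the third gene higher in LG (1.70), named after its values were seen. IL2RA was higher in DP by 1.39, at 2.02 to 2.18 scaled FPKM in the 3 DP libraries against 0.141 to 0.217 in LL, so that library 1 did not stand out. IL7R, the receptor of naive and memory T cells, was at 6.07, 4.75 and 4.61 in LL, 22.6, 17.8 and 6.77 in DP, compared with 1.16, 2.53 and 1.35 in LG, and was higher in DP than in LL by 1.31 and lower in LG than in LL (-1.22 ± 0.36, adjusted p = 0.0191, limma). The first call was lost without library 1 of DP (0.985), and the second without library 1 of LL or 1 or 3 of LG (-1.09 to -1.15). Without scaling the second difference was -0.34 and not called. A grouping was also made after the values were seen. No LG library of CD4, CD8B, PRF1, IL7R or CD69 was above the highest LL library. This is a looser condition than the next, CD4 and CD8B overlapped LL, and its share of all genes was not computed. Each LG library of CD8A, NKG7, GZMA, ITGAE and CXCR6 was above the highest LL library, as in 31.0% of all genes tested. The homing list as a whole was mixed in LG against LL, with 11 of 25 genes positive. Its genes ITGA1 (-0.54) and ZNF683 (-0.42), named after their values were seen, were negative there and not called. The genes were sorted by these same values, so the grouping is not a test.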

How the data were processed

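RNA of mammary tissue from 9 goats was extracted with Trizol, made into libraries with a TruSeq kit and sequenced on an Illumina instrument. The authors aligned reads with HISAT2 and quantified transcripts with StringTie as FPKM, per their methods. The submitters' notes also list HTSeq. The deposited table holds 1 value per gene and library, read here as FPKM because the table names no unit. The methods name the goat reference genome by a sample accession, and the table itself names no build. How the gene values were made from transcripts is not given in the sources used here. FPKM carry no read counts, so depth per value is unknown and no counting error is given. 0 columns of other samples were left out.

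Values were divided by median-ratio factors from 15905 genes, 1 was added and log2 taken. The 14701 genes that reached 0.5 FPKM in 3 or more libraries were fitted in limma 3.58.1 (R 4.3.3, trend, 9 libraries, no covariates), with Benjamini-Hochberg adjustment over all of them, and checked on simulated data. Ratios were compared with exact permutation tests (scipy 1.17.1). Neighbouring genes (8 on each side) were searched for values that follow a straight line to within 1% of the range, with or without the amounts between BAX and FTL. P-values measure the spread between goats, 3 per stage.

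The members and lists were chosen with earlier results of these data known. The genes named are all members, PTPRC, for each list the 3 genes with the smallest adjusted p in DP against LL and the gene with the largest fall among those called lower in any comparison, and the 10 genes most correlated with the members' mean. Others, among them UNC13D, CD69 and the single marker genes of other cells, were chosen after their values were seen. Alternatives covered scaling, pseudocount, filter, stages in the fit, a replicate block, each library left out, the trend, the fold threshold and, chosen after seeing the data, the subtraction of the amounts between BAX and FTL. Some values of marker genes are not reported here.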

Additional observations from a re-analysis of the deposited data

How the results depend on the processing

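The count of members called was 5 in DP against LL and 4 to 7 under the alternatives, and 4 in LG against LL and 2 to 6. In DP against LG it was 0, and 2 without scaling, 2 with a pseudocount of 0.1, 2 without library 3 of DP (CD4 and CD8B each time) and 1 with the adjusted p alone. Leaving out each library in turn gave 4 to 5, 2 to 4 and 0 to 2, the lowest in LG against LL without library 2 of LG. A filter of 2 FPKM in 3 libraries left 6 members, without CD4, CD8B and GZMA. A replicate block gave 5, 4 and 0, and changed no call of a member. The labels do not pair goats by number and the deviations of same-numbered libraries correlated by -0.106 to 0.201, so the blocked fit is only an alternative.

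The lists of other T cell and cytotoxic genes had 43, 28 and 21 calls, which the replicate block left at 43, 29 and 21. Without scaling there were 74 in DP against LL (74 higher) and 32 in DP against LG (30 higher), with the adjusted p alone 68, 59 and 44, and with a pseudocount of 0.1 33 in DP against LG. Of the LG against LL calls, 23 of 28 were higher, and 38 of 38 without scaling, 30 of 59 with the adjusted p alone and 27 of 41 with a pseudocount of 0.1. Leaving out each library gave 32 to 46, 23 to 29 and 13 to 28, the last at its lowest without library 1 of DP.

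Signs of single genes turned without scaling for CD4 (0.13) and CD8B (0.17) in LG against LL, PRF1 in DP (1.00) and LG (0.34) against LL and CD7 in DP against LL (0.10). Without library 1 of DP they turned in DP against LG for CD3D (-0.22, the highest value without 1 library being 0.66) and CD3G (-0.20, the highest being 0.69). PRF1 in DP against LL was 0.05 without library 3 of LL, 0.06 without library 2 of DP, 0.093 without library 3 of DP and 0.84 with the amounts subtracted, which also gave 0.19 in LG against LL.

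Among the log2 differences of ratios, adding 0.1 to both values gave 2.71 for CD8A/CD4 in LG against LL, 1.41 and 1.75 for CD3D/CD3E, 1.59 and 1.85 for CD3G/CD3E and 1.06 and 1.57 for CD8A/PTPRC in DP and LG against LL, and 2.03 for NKG7/CD3E in LG against LL. With the amounts subtracted, CD3E/PTPRC was -0.59 and 0.15, PRF1/CD3E -0.062 and -0.61 and CD8A/PTPRC 1.16 and 1.75 in DP and LG against LL, CD4/PTPRC was -0.94 in DP against LL and PRF1/CD3E 0.54 in DP against LG. Apart from the subtraction itself, the cause of these changes was not tested. No limit of depth can be stated from FPKM, and the 2 decimals of the table coarsen values under 0.1.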
